A study of Mus musculus with 16 samples.

Results

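A list of 32 genes of mitochondrial fatty acid oxidation and ketone body metabolism was followed in whole mouse liver across 4 diets, 2 body weight classes and a single dose of an agonist of the nuclear receptor PPARα. Its genes were chosen by name, with earlier results of these data known and no threshold on measured values. Each was read from the transcript cluster (the probe group that the array summarises as 1 value) assigned to that gene alone. Of the 32 genes, 30 had such a cluster and all 30 passed the filter on low values, on 16 of 16 arrays. They stand among 14275 genes tested of 18820 with a cluster. Cpt1b and Acadvl were represented only by clusters assigned to several genes and were not analysed here.

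The 16 arrays were 1 per mouse, from male C57BL/6J mice that entered their diet at 9 weeks of age, after 2 weeks of acclimatization, and were killed at 12 months. Control mice (C) had the AIN-93W diet, and CR mice had the AIN-93W-CR diet at 30% calorie restriction. MF mice ate AIN-93W-MF, in which fat supplied 25% of the energy, and INT mice switched every week between that diet ad libitum and 40% calorie restriction, being killed in an ad libitum week. By the study's methods C and MF mice also ate ad libitum and CR mice received daily portions, so the timing of the last meal may have differed between diets. All mice were fasted for 4 h, gavaged with 0.5% carboxymethyl cellulose alone (mock) or with Wy-14,643 at 160 mg/kg (Wy), and fasted for another 6 h. Within each diet 1 mock and 1 Wy mouse of high body weight and 1 of each of low body weight were arrayed, which gave 8 matched pairs, 8 arrays per treatment and 4 per diet. Each group of diet and treatment held 2 mice, and the labels give body weight classes but no weights. A p-value here measures the spread between single-mouse arrays. Over all clusters array medians lay between 5.53 and 5.59 log2 units, and every pair of arrays correlated at 0.982 or more. The names of 14 arrays share 1 prefix and those of the high INT mock and high INT Wy arrays another.

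All 8 hepatocyte markers of the tissue check were above the filter, with a mean level of 12.9 to 13.1 on every array. Adipoq, which defines fat cells, and Myh1, a muscle myosin, were below the filter on all arrays. Of the measured markers, however, 2 of 4 adipocyte, 4 of 5 muscle and 2 of 2 exocrine pancreas markers passed the filter. Over the measured markers of each list the mean level lay at 4.39 to 4.64, 4.91 to 5.19 and 5.01 to 5.42. Whether other tissue contributed was not tested. In whole liver, fewer cells of a type and less RNA per cell cannot be told apart.

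Long-chain fatty acids enter mitochondria as carnitine esters. Cpt1a, the outer-membrane enzyme that malonyl-CoA inhibits, makes the ester, Slc25a20 carries it across the inner membrane and Cpt2 rebuilds the acyl-CoA. Acyl-CoA dehydrogenases, hydratases, hydroxyacyl-CoA dehydrogenases and thiolases then remove acetyl-CoA in repeated rounds, and electrons pass through the electron transfer flavoprotein to the respiratory chain. In fasting liver part of the acetyl-CoA becomes ketone bodies, and PPARα is a well-known activator of many of these genes.

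The upstream sequences of the carnitine genes and of the trifunctional protein gene Hadhb are shown because these genes rose with Wy, except Cpt1a, the first enzyme of the same shuttle, which did not pass the test. RefSeq promoter windows on GRCm38.p6 matched 25 of the 30 genes by symbol, 2 of them with 2 windows, and the 250 bases before each start site were searched on both strands. Capitals mark GGGCGG (the GC box bound by Sp1) or AGGTCA (the half-site of nuclear receptors such as PPARα), or their reverse complements, and none of the marked letters overlap. All 4 stretches are printed 5′ to 3′ on the strand of the gene, and end at the base before the start site.
Hadhb, chr5:30155003-30155252, plus strand: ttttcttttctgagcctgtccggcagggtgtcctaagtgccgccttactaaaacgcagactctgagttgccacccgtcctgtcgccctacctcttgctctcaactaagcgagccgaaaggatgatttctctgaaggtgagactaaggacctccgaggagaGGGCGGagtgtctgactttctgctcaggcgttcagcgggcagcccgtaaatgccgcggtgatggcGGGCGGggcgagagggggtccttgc
Slc25a20, chr9:108661886-108662135, plus strand: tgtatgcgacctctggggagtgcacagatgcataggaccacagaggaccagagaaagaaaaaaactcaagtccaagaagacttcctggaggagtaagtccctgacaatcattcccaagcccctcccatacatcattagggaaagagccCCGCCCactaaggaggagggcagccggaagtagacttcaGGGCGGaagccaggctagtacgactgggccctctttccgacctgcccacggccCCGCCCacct
Cpt2, chr4:107923590-107923839, minus strand: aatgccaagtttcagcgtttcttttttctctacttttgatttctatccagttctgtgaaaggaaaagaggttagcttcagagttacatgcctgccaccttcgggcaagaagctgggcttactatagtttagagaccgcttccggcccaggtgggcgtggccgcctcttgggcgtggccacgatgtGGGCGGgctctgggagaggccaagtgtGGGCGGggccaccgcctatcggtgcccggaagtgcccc
Cpt1a, chr19:3323051-3323300, plus strand: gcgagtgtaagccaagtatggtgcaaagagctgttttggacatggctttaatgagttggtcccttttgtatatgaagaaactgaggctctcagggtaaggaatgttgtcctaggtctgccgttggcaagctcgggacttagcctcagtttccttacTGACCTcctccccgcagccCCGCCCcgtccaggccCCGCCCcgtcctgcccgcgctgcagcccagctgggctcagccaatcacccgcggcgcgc

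The Hadhb stretch held 2 GC boxes, the Slc25a20 stretch 3, the Cpt2 stretch 2 and the Cpt1a stretch 2, and only the Cpt1a stretch of these 4 held a half-site, 1 in all. GC boxes occurred in 16 of the 25 genes matched (64%), against 35.4% of 27025 genes with such a window. AGGTCA was found in 4 of 25, which were Acadm, Cpt1a, Echdc3 and Echs1 (16% against 15.8% of all genes). The direct repeat of AGGTCA with 1 base between the copies was in 0 of 25 and in 0.0407% of all genes. TATAAA was in 0 of 25 against 14.3%, and CCAAT in 10 of 25 (40%) against 37.5%. These shares describe letters within the windows. Hadha and Hadhb, which encode the α and β subunits of the trifunctional protein, lie head to head on chromosome 5 with 272 bases between their start sites, so the Hadhb stretch lies inside the interval they share.

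Whether Wy changed these genes was asked within the 8 matched pairs. Of the 30 genes 19 passed the test at an adjusted p under 0.05, 14 higher and 5 lower, where 28.3% of all genes tested passed in either direction and 12.3% passed as higher. As lower, 2283 of the 14275 genes passed, so the share of falls among the 30 was near that over all genes. The median change of the 30 genes was 0.13 log2 units, against -0.01 over all genes tested. Crat rose most, and the rises covered the carnitine shuttle beyond Cpt1a, the long- and medium-chain dehydrogenases, both trifunctional protein subunits, the 3 auxiliary enzymes and Etfdh. All 8 Wy arrays lay above all 8 mock arrays for 12 of the 30 genes, where 2.78% of all genes did so, and below them for 1, Echdc3, where 2.07% did. In every pair 13 genes were higher with Wy and 4 were lower. That count was not made over all genes tested, so it describes the 30 genes only. In the same comparison 1 of 8 hepatocyte markers was lower and 1 of 2 adipocyte markers tested was higher, while 0 of 7 macrophage, 0 of 5 endothelial and 0 of 6 stellate and matrix markers passed in limma. The mean level of the adipocyte markers was 4.39 to 4.56 on mock and 4.40 to 4.64 on Wy arrays, and their part in the result was not tested.

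Crat, the acetyltransferase that moves acetyl groups between CoA and carnitine, had a lowest, median and highest value of 10.41, 10.93 and 11.08 on the mock arrays and 11.90, 12.01 and 12.13 on the Wy arrays. The groups did not overlap, and the lowest mock value was that of the low MF mouse. The rise was 1.16 ± 0.09 log2 units (SE), or 2.24-fold, with an adjusted p of 5.74e-06 in limma. It ran from 0.84 in the high MF and high INT pairs to 1.67 in the low MF pair.

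Slc25a20, the carnitine-acylcarnitine carrier, lay at 10.44, 10.82 and 11.15 (lowest, median and highest) on mock arrays and at 11.41, 11.56 and 11.61 on Wy arrays. Both CR mice were lowest among the mock arrays and both were lowest among the Wy arrays, and the treatments did not overlap. It rose by 0.77 ± 0.07 log2 units (adjusted p 1.43e-05, limma). Cpt2 lay at 10.68, 10.94 and 11.17 on mock arrays and at 11.47, 11.57 and 11.72 on Wy arrays. Its rise was 0.66 ± 0.06 (adjusted p 1.41e-05), again with no overlap. Mlycd, which breaks down malonyl-CoA and so relieves the inhibition of Cpt1a, rose by 0.64 ± 0.05 (adjusted p 1.10e-05), from 8.60, 8.85 and 9.08 to 9.36, 9.49 and 9.59.

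Cpt1a stood apart from the rest of the shuttle. It lay at 11.86, 12.32 and 12.46 on mock arrays and at 12.14, 12.42 and 12.48 on Wy arrays, and the groups overlapped. The difference was 0.14 ± 0.06 log2 units with an adjusted p of 0.108 in limma, and its pairs ran from -0.01 to 0.46, the highest in the low CR pair. With each array centred on its median over the tested genes, Cpt1a passed the test. Within the shuttle 4 of 5 genes rose and 0 fell.

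**Figure D1:**
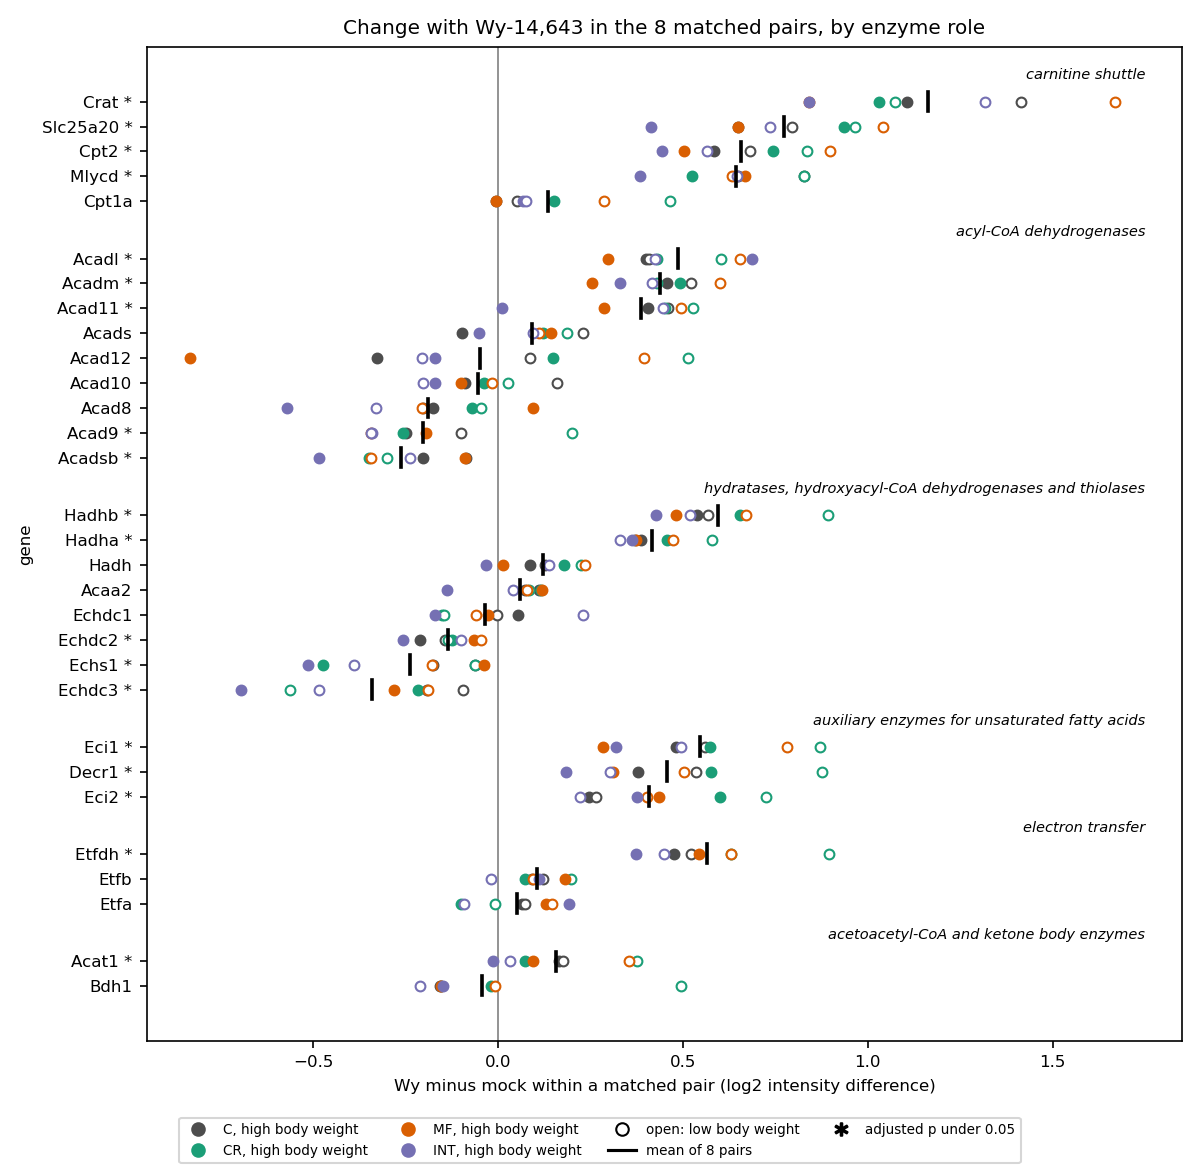
Wy minus mock difference in log2 intensity (horizontal axis) for each of the 30 genes (vertical axis, grouped by role) in the 8 matched pairs. Each point is 1 pair, coloured by diet and filled for high body weight, the bar is the mean of the 8 pairs and a star marks an adjusted p under 0.05 in limma. The points of Crat all lie at 0.84 or above, while those of Cpt1a run from -0.01 to 0.46.

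Of the 9 acyl-CoA dehydrogenases, which carry out the first step of each round, 3 rose and 2 fell. Acadl, which prefers long chains, lay at 10.51, 10.67 and 10.75 on mock arrays and at 10.98, 11.13 and 11.38 on Wy arrays. The 2 ranges did not overlap, and the rise was 0.49 ± 0.05 (adjusted p 6.04e-05, limma). Acadm, the medium-chain enzyme, rose by 0.44 ± 0.05 (adjusted p 5.44e-05), and Acad11 by 0.39 ± 0.06 (adjusted p 0.000595). The short-chain enzyme Acads changed by 0.09 ± 0.05, with an adjusted p of 0.185.

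The dehydrogenases of branched-chain amino acid breakdown had negative values. Acadsb, which handles the acyl-CoA made from isoleucine, was at 9.79, 10.04 and 10.33 on mock arrays and at 9.62, 9.79 and 10.03 on Wy arrays. It was lower in all 8 pairs although the groups overlapped, and fell by 0.26 ± 0.05 log2 units (adjusted p 0.00306, limma). Acad8, the isobutyryl-CoA dehydrogenase of valine breakdown, had a difference of -0.19 ± 0.07 and an adjusted p of 0.0551. Acad9, which also takes part in assembling complex I, fell by 0.20 ± 0.06 (adjusted p 0.0316), a call that 14 of the 22 alternative settings lost. Acad10 and Acad12 had differences of -0.05 each and did not pass.

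Both trifunctional protein subunits rose. Hadhb, the thiolase subunit, went from 10.39, 10.68 and 10.94 to 11.19, 11.28 and 11.46, a rise of 0.59 ± 0.05 (adjusted p 1.85e-05, limma) with no overlap. A second cluster assigned to Hadhb gave a mean difference of 0.62, against 0.59 for the cluster used. Hadha, the hydratase and long-chain hydroxyacyl-CoA dehydrogenase subunit, rose by 0.42 ± 0.04 (adjusted p 3.71e-05). Among the matrix enzymes for shorter chains, Hadh differed by 0.12 ± 0.04 (adjusted p 0.0659, higher in 7 of 8 pairs), the thiolase Acaa2 by 0.06 ± 0.04 (adjusted p 0.341, higher in 7 of 8 pairs), and the short-chain hydratase Echs1 fell by 0.24 ± 0.07 (adjusted p 0.0181). Echdc3, a hydratase-domain protein, lay at 9.50, 9.56 and 9.65 on mock and at 8.86, 9.28 and 9.44 on Wy arrays, the lowest in the high INT mouse. It fell by 0.34 ± 0.07 (adjusted p 0.0037) and Echdc2 by 0.14 ± 0.04 (adjusted p 0.028), while Echdc1 differed by -0.03 ± 0.05. The Echdc2 call was lost in 10 of 22 alternative settings, counted as for Acad9.

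The 3 auxiliary enzymes, which bring the double bonds of unsaturated fatty acids into a form the spiral can use, all rose. Eci1, an enoyl-CoA isomerase, lay at 10.07, 10.60 and 10.82 on mock arrays and at 10.94, 11.12 and 11.21 on Wy arrays, without overlap. It rose by 0.55 ± 0.07 (adjusted p 0.000134, limma). Decr1, the 2,4-dienoyl-CoA reductase, rose by 0.46 ± 0.07 (adjusted p 0.000582) and Eci2, the isomerase also known from peroxisomes, by 0.41 ± 0.06 (adjusted p 0.00051).

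Of the electron transfer genes only Etfdh, the oxidoreductase that passes electrons to ubiquinone, rose. It lay at 10.85, 11.18 and 11.35 on mock and at 11.67, 11.73 and 11.80 on Wy arrays, and rose by 0.56 ± 0.06 (adjusted p 3.55e-05, limma). Etfa and Etfb, the 2 subunits of the flavoprotein that hands electrons to Etfdh, differed by 0.05 ± 0.05 and 0.11 ± 0.04 (adjusted p 0.475 and 0.0746), and Etfb passed under centring. The difference was larger for Etfdh than for Etfa in 8 of 8 pairs and than for Etfb in 8 of 8 pairs. At the ketone end, Acat1, the acetoacetyl-CoA thiolase, rose by 0.16 ± 0.05 (adjusted p 0.0497, limma). That call was lost in 15 of 22 alternative settings, counted as for Acad9. Bdh1, which interconverts acetoacetate and β-hydroxybutyrate, differed by -0.04 ± 0.07 (adjusted p 0.701).

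Genes around the pathway were counted in the same fit. In peroxisomal oxidation 9 of 16 tested genes rose and 2 fell (median 0.35), with the smallest p for Acaa1b at 1.20, Acaa1a at 1.03 and Ehhadh at 1.46 log2 units. Among fatty acid activation and carnitine supply genes 3 of 11 rose and 0 fell (median 0.08), with the carnitine carrier Slc22a5 at 1.80, the thioesterase Acot2 at 2.13 and Acsl5 at 0.35. Of 14 genes of malonyl-CoA synthesis and regulators 5 rose and 2 fell (median 0.12), where Pdk4, a kinase that inhibits pyruvate dehydrogenase, rose by 4.00, Fgf21 rose by 1.82 and Ppargc1a fell by 0.99.

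In the remaining ketone genes 1 of 6 tested rose, the monocarboxylate carrier Slc16a1 by 1.54, and 1 fell, Bdh2 by 0.58. The respiratory chain, which takes up the electrons, had 6 of 38 subunit genes higher and 0 lower (median 0.02), with the smallest p for Ndufb8 at 0.24, Uqcrfs1 at 0.23 and Ndufa8 at 0.19 and the largest rise for Ndufb3 at 0.27. Branched-chain amino acid breakdown had 0 of 16 higher and 7 lower (median -0.08), with the smallest p for Bcat2, which fell by 0.79, Dbt by 0.19 and Ivd by 0.28. These counts stand against the 28.3% of all genes that passed.

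**Figure D2:**
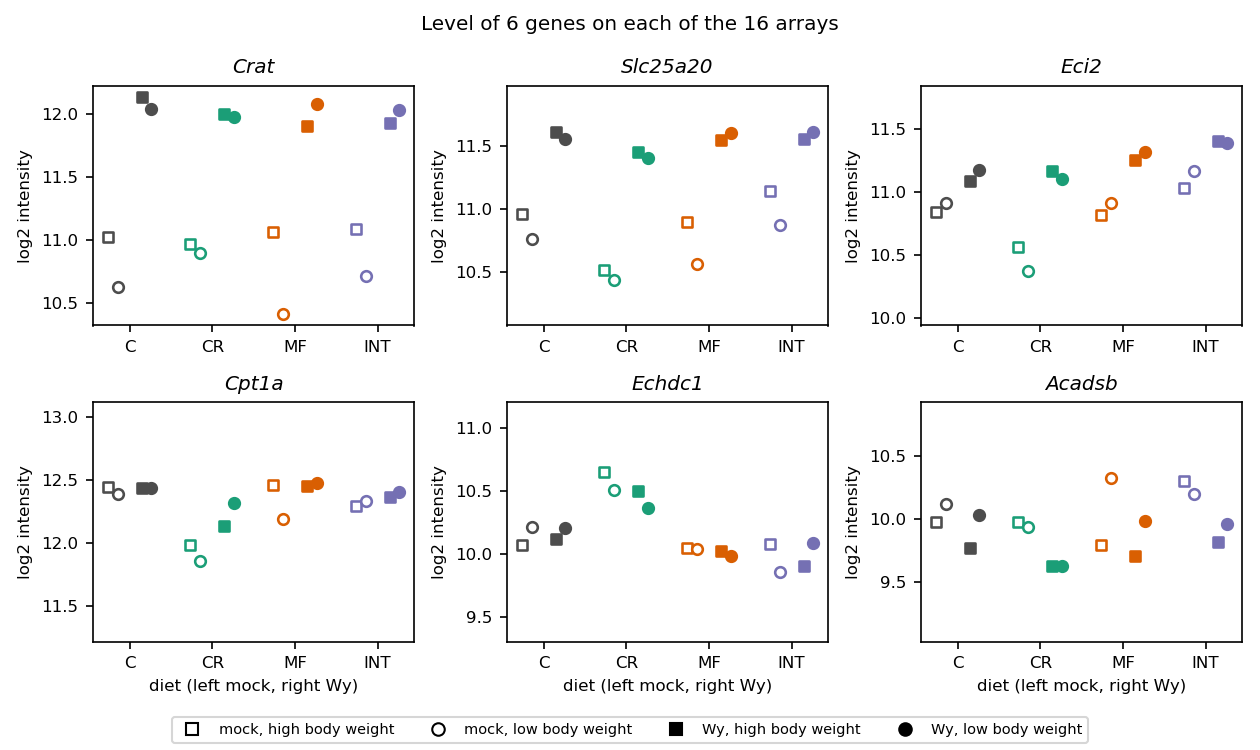
Log2 intensity (vertical axes) of 6 genes on all 16 arrays by diet (horizontal axis, mock on the left and Wy on the right of each diet). Squares are high and circles low body weight, open symbols mock and filled symbols Wy. Crat and Slc25a20 separate mock from Wy in every diet, Cpt1a is lowest and Echdc1 highest on CR mock arrays, and Acadsb is lower in the heavier mouse of each C and MF group.

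Calorie restriction was set against the control and medium-fat diets next, in a fit that also held terms for treatment and class. In CR minus C 3 of the 30 genes passed (10.5% of all genes tested), and in CR minus MF 3 (12.7%), so neither count was above the share over all genes. Echdc1 was higher and Cpt1a lower in CR in both, and these comparisons share the CR arrays. The median difference of the 30 genes was -0.11 log2 units in CR minus C and -0.09 in CR minus MF, against -0.01 in each over all genes.

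Echdc1 encodes ethylmalonyl-CoA decarboxylase, which removes a side product of acyl-CoA carboxylation. On the CR arrays it lay at 10.65 (high mock), 10.51 (low mock), 10.50 (high Wy) and 10.36 (low Wy), and on the C arrays, in the same order, at 10.07, 10.21, 10.12 and 10.21. Its MF values were 10.05, 10.04, 10.02 and 9.98 and its INT values 10.07, 9.86, 9.90 and 10.09. All 4 CR arrays lay above the other 12. The difference was 0.35 ± 0.07 against C (adjusted p 0.00842, limma) and 0.48 ± 0.07 against MF (adjusted p 0.00127).

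Cpt1a lay at 11.99, 11.86, 12.14 and 12.32 on the CR arrays (high mock, low mock, high Wy, low Wy) and at 12.45, 12.39, 12.44 and 12.44 on the C arrays. On MF arrays it was at 12.46, 12.20, 12.46 and 12.48. The CR and C arrays did not overlap, while the low CR Wy array exceeded the low MF mock array. Cpt1a was 0.35 ± 0.08 lower than in C (adjusted p 0.0113, limma) and 0.32 ± 0.08 lower than in MF (adjusted p 0.0157). The difference from C was -0.50 among mock arrays (adjusted p 0.0422) and -0.21 among Wy arrays (adjusted p 0.425).

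Acad12, an acyl-CoA dehydrogenase family member, lay at 6.12, 5.75, 6.26 and 6.26 on CR arrays and at 7.00, 6.59, 6.67 and 6.68 on C arrays, in the same order, with no overlap. It was 0.64 ± 0.18 lower in CR than in C (adjusted p 0.0395, limma). The call was lost without any 1 of the 4 C arrays, the high CR mock, the high CR Wy or the low CR mock array, which left Cpt1a and Echdc1. Eci2 was 0.27 ± 0.08 lower in CR than in MF (adjusted p 0.0492), a call that 21 of 25 alternative settings lost. Without the high MF mock array Echdc1 alone passed in CR minus MF.

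No gene passed between the medium-fat and control diets. In MF minus C 0 of 30 were called (0% of all genes) in limma, with 0 at an unadjusted p under 0.05, and the changes ran from -0.20 to 0.07. Over all genes 628 of 14275 had an unadjusted p under 0.05. Echdc1 had the smallest p, with a difference of -0.13 ± 0.07 (adjusted p 1.00), followed by Acad10 at -0.15 ± 0.09.

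The intermittent diet was compared with the other 3 in a week of ad libitum feeding. In INT minus CR 7 of the 30 genes passed, 6 higher and 1 lower (9.85% of all genes), with a median of 0.15 against 0.01 over all genes. In INT minus C 0 of 30 passed in limma (0.00701% of all genes, 5 members at an unadjusted p under 0.05), and in INT minus MF 0 of 30 (0% of all genes, 1 at an unadjusted p under 0.05). Of all 14275 genes, 1405 had an unadjusted p under 0.05 in INT minus C and 1629 in INT minus MF. The genes nearest the threshold were Acad10 at -0.30 ± 0.09 (adjusted p 0.307) and Acad12 at -0.57 ± 0.18 (adjusted p 0.351) against C. Against MF they were Hadhb at 0.19 ± 0.08 (adjusted p 0.401) and Eci2 at 0.18 ± 0.08 (adjusted p 0.45). INT minus CR uses the same CR arrays as the comparisons above.

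Echdc1 was 0.52 ± 0.07 lower in INT than in CR (adjusted p 0.000801, limma), on the array values given above. The genes for unsaturated fatty acids were higher. Eci2 lay at 11.04, 11.17, 11.41 and 11.39 on INT arrays (high mock, low mock, high Wy, low Wy) and at 10.57, 10.38, 11.17 and 11.10 on CR arrays, a difference of 0.45 ± 0.08 (adjusted p 0.0051). Eci1 lay at 10.82, 10.72, 11.14 and 11.21 against 10.36, 10.07, 10.94 and 10.94, a difference of 0.40 ± 0.09 (adjusted p 0.0119). Decr1 lay at 10.91, 10.83, 11.09 and 11.13 against 10.38, 10.14, 10.95 and 11.02, a difference of 0.37 ± 0.09 (adjusted p 0.0232).

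For these 3 genes each INT array lay above the CR array of the same treatment and class, and the gap was wider among mock arrays. The 3 genes of the carnitine shuttle that passed were Slc25a20 at 0.34 ± 0.09 (adjusted p 0.0236), Cpt2 at 0.28 ± 0.07 (adjusted p 0.0284) and Cpt1a at 0.28 ± 0.08 (adjusted p 0.0386).

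The difference between INT and CR was split by treatment, with the spread taken from all arrays. Among mock arrays 6 of the 7 passed in limma, all but Cpt1a. The 7 had been called on all arrays, the mock arrays included, so passing again is no separate support. Eci2 was at 0.63 (adjusted p 0.0101), Decr1 at 0.61 (adjusted p 0.0154), Eci1 at 0.55 (adjusted p 0.0368) and Slc25a20 at 0.53 (adjusted p 0.0293). Among Wy arrays 0 passed, and Eci2, Decr1, Eci1 and Slc25a20 differed by 0.27, 0.13, 0.24 and 0.16. Echdc1 was at -0.61 among mock arrays (adjusted p 0.0182, limma) and at -0.43 among Wy arrays (adjusted p 0.0997). The share of all genes that passed within each treatment is not given here, so these counts are not set against it. No contrast of the INT minus CR gap between mock and Wy arrays was fitted. The limma F test of the Wy effect over all 4 diets (Wy by diet) called 0 of the 30 genes, with 0.997 as the smallest adjusted p.

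The position of the CR mice was also counted within each treatment. Both CR mock arrays lay below the 6 other mock arrays for 11 of the 30 genes, where 14.5% of all genes did so, and above them for 3 (8.36% of all genes). The 11 were Cpt1a, Cpt2, Slc25a20, Acadm, Acads, Acad11, Echdc2, Decr1, Eci1, Eci2 and Etfdh. On Wy arrays both CR mice lay below the 6 others for 8 genes (8.96% of all genes) and above for 2 (10.3%).

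The calls rested on few arrays. Without the high or the low CR mock array, or without the high or the low INT mock array, 3 of the 7 calls were left (Echdc1, Eci1 and Eci2). Without the high INT pair, whose arrays have the other name prefix, Echdc1 alone passed (adjusted p 0.018), with Eci2 at 0.47 (adjusted p 0.0575). The part of the prefix was not tested. Beside these diet comparisons the mean level of lymphocyte markers was 4.56 to 4.99 on CR arrays and 4.74 to 5.53 on the others, and that of hepatocyte markers 13.0 to 13.1 and 12.9 to 13.0. In INT minus CR 1 of 4 lymphocyte and 1 of 2 exocrine pancreas markers tested were higher and 1 of 8 hepatocyte markers lower. In CR minus C and in CR minus MF 1 of 2 pancreas markers and 1 of 6 stellate and matrix markers were lower and 1 of 8 hepatocyte markers higher, and in CR minus MF 1 of 4 lymphocyte markers was lower, with 1 of 5 endothelial markers called in each direction. The mean level was 5.01 to 5.20 on CR and 5.15 to 5.42 on the other arrays for the pancreas markers, and 7.99 to 8.29 and 8.11 to 8.64 for the stellate and matrix markers. Their part in the differences was not tested.

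**Figure D3:**
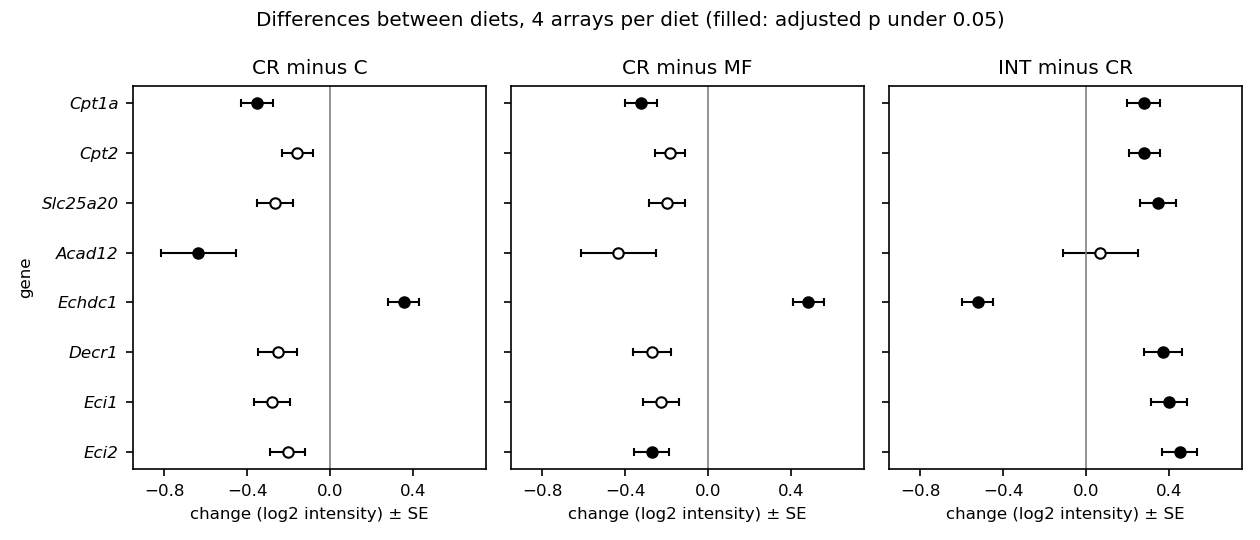
Change in log2 intensity with its standard error (horizontal axes) in CR minus C, CR minus MF and INT minus CR for the 8 genes (vertical axis) that passed in at least 1 of them. Filled points have an adjusted p under 0.05 in limma, each diet has 4 arrays and all 3 panels share the CR arrays. Echdc1 lies at 0.35, 0.48 and -0.52, opposite in sign to Cpt1a in each panel.

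In the surrounding lists, set against the 9.85% of all genes that passed, INT minus CR gave 6 of 16 peroxisomal genes higher and 1 lower (median 0.25), and 0 of 14 genes of malonyl-CoA synthesis and regulators higher and 4 lower (median -0.11). The 2 acetyl-CoA carboxylases, which make the malonyl-CoA that inhibits Cpt1a, were picked out after their values were seen, as were the other regulators named here. Acaca fell by 1.53 ± 0.16 log2 units in INT against CR (adjusted p 6.89e-05, limma) and was 1.02 ± 0.16 higher in CR than in C (adjusted p 0.00141). Acacb fell by 1.12 ± 0.20 in INT against CR (adjusted p 0.00365) and differed by 0.62 ± 0.20 in CR minus C (adjusted p 0.0652). The other regulators called in INT minus CR were Ppargc1a, a coactivator, which fell by 1.71 ± 0.18 (adjusted p 9.07e-05), and Lpin1, which fell by 1.24 ± 0.25 (adjusted p 0.0073). Respiratory chain genes had 0 of 38 higher and 1 lower, ketone genes 0 of 6 in either direction, activation and carnitine supply genes 0 of 11 higher and 3 lower, and branched-chain genes 1 of 16 higher and 0 lower.

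Body weight class was compared next. Over all diets 0 of 30 genes passed in high minus low in limma (0% of all genes, 1 member at an unadjusted p under 0.05). In C and MF, 1 passed (7.39% of all genes), and in CR and INT 0 (0% of all genes, 1 member at an unadjusted p under 0.05). The difference between these 2 effects was called for 0 of 30 (0.855% of all genes, 1 member at an unadjusted p under 0.05). Of all 14275 genes, 2000 had an unadjusted p under 0.05 over all diets, 679 in CR and INT and 2012 for the difference. In INT both high arrays have the other name prefix and both low arrays do not, so class and prefix cannot be told apart there. This limits each of these comparisons that uses the INT arrays.

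The gene called in C and MF was Acadsb, which was 0.30 ± 0.07 log2 units lower at high body weight (adjusted p 0.033, limma). The heavier C mice were at 9.97 (mock) and 9.77 (Wy) and the lighter at 10.11 and 10.03. The heavier MF mice were at 9.79 and 9.70 and the lighter at 10.33 and 9.98. The 4 arrays of high body weight lay below the 4 of low body weight, with the high C mock and low MF Wy arrays almost level. The difference from the effect in CR and INT was -0.30 ± 0.10 (adjusted p 0.206). The call was lost without any 1 of the 4 C arrays, without the high or the low MF mock array, and without the low MF Wy array.

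On the heavy C and MF arrays the mean level of the stellate and matrix markers was 8.36 to 8.64, against 7.99 to 8.32 on the other 12 arrays, and 2 of 6 of them, 2 of 5 endothelial and 1 of 7 macrophage markers were higher at high body weight in C and MF. Hepatocyte markers were at 12.9 to 13.0 on those arrays and 12.9 to 13.1 on the others, with 0 of 8 called. Their part in the Acadsb difference was not tested. Crat, which had the next smallest p in C and MF, was 0.24 ± 0.12 higher at high body weight (adjusted p 0.278). In CR and INT the smallest p was that of Acadl at 0.17 ± 0.08 (adjusted p 0.968).

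Whether the response to Wy depended on diet or class was tested as an interaction. With diet, 0 of 30 genes passed (0% of all genes) in limma and 0 had an unadjusted p under 0.05, where 669 of all 14275 genes did. Eci2 was nearest, with mean Wy changes of 0.25 in C, 0.66 in CR, 0.42 in MF and 0.30 in INT. Decr1 followed with 0.46, 0.73, 0.41 and 0.24. With body weight class 0 of 30 passed (0% of all genes) and 3 had an unadjusted p under 0.05, where 673 of all 14275 genes did. The 3 members were Crat, with 0.95 at high and 1.37 at low body weight, Acad12, and Eci1, with 0.41 and 0.68. The interaction of Crat was -0.41 ± 0.13 with an adjusted p of 0.999.

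The mean Wy minus mock difference, taken with its sign, was lower at high than at low body weight for 26 of the 30 genes, and the median of the interaction was -0.12 log2 units, against 0.00 over all genes. Of the 14 genes that rose with Wy, 13 had the smaller mean rise at high body weight, and of the 5 that fell, 5 had the larger mean fall there. The high pair had a lower signed value than the low pair for 24 genes in C, 26 in CR, 20 in MF and 21 in INT. Averaged over the 30 genes, the pair differences ran from 0.06 in the high INT pair, whose arrays have the other name prefix, to 0.39 in the low CR pair. The genes share their arrays, so these counts describe the 8 pairs and carry no test. They were not made over all genes tested, so how unusual they are is not known.

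**Figure D4:**
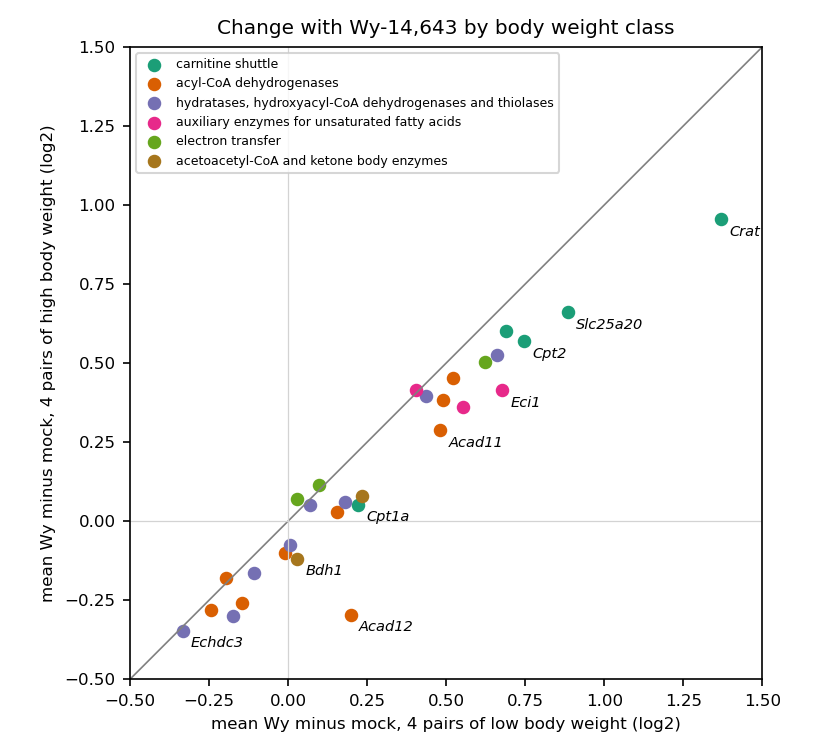
Mean Wy minus mock difference in log2 intensity over the 4 pairs of low (horizontal axis) and the 4 pairs of high body weight (vertical axis) for each of the 30 genes, coloured by role, with the line of equal change in grey. Of the 30 genes 26 lie below the line, Crat at 1.37 and 0.95, and no gene passed the test of the difference.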

How the data were processed

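Liver RNA of 16 mice was hybridised to Affymetrix Mouse Gene 1.1 ST arrays, 1 per mouse. The deposited values are log2 intensities that the authors made with robust multi-array averaging (RMA, per the labels), which corrects background, equalises the distributions of the arrays and summarises probes per transcript cluster, so a shift common to most genes is removed. Neither the software version nor the genome build is given in the sources used here. Precision is limited by the number of arrays.

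Of 35556 transcript clusters, 21218 were assigned to exactly 1 gene. For 1386 genes with several clusters the one with the highest mean was taken, which left 18820 genes. Following the study's methods, 14275 genes with an intensity above 20 (4.32 on the log2 scale) on at least 5 arrays were tested. The members and lists were chosen with earlier results of these data known.

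Tests were run with limma 3.58.1 in R 4.3.3 (lmFit and eBayes) on all tested genes, adjusted by Benjamini-Hochberg within each comparison, with 0.05 as the threshold of a call. For the Wy effect the pair was a block (leaving 7 degrees of freedom), diets and body weight over all diets had the remaining factors as terms (10), body weight effects by diet came from a model of diet by class with treatment as a term (7), and interactions with Wy were fitted with the pair as a block (4 for diet, 6 for class). The labels state that mock and Wy mice were matched by weight within a diet. As a check of the pairing, the high minus low difference of the mock arrays was correlated across genes with that of the Wy arrays. The correlation was 0.531 in C, -0.169 in CR, 0.564 in MF and 0.0839 in INT, so it was low in INT and negative in CR. With 1 pair per diet and class, an effect of body weight class and the matching of single mice cannot be told apart here. The fits were tested on simulated data with known changes. Errors are standard errors of the fit.

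Genes named with array values were the called ones, at most 8 with the largest change for Wy and 4 with the smallest p elsewhere, or 2 where none passed. Other lists were given by counts, with up to 3 genes of the smallest p for Wy. Alternatives were centring each array, no filter, a trended robust prior, leaving out the 2 arrays with the other name prefix, the mean over clusters, single treatments, other block settings, and leaving out each array.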

Additional observations from a re-analysis of the deposited data

Results flagged for a closer look

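Among the 8 pair differences (Wy minus mock) of each of the 30 genes, 4 genes had 1 pair far from the others by Dixon's criterion, which chance alone meets in about 1 group in 20. Acad9 was higher with Wy by 0.20 log2 units in the low CR pair, where the next pair was at -0.10. Bdh1 was at 0.49 in the low CR pair and at -0.01 in the next. Acad11 was at 0.0091 in the high INT pair, with the next at 0.29, and Acaa2 was at -0.14 in the same pair, with the next at 0.04. The low CR mock array held the lowest mock value of both Acad9 (8.01) and Bdh1 (10.71). This was not particular to them. The same array was the lowest mock array for many other members, among them Cpt1a (11.86), Slc25a20 (10.44), Hadhb (10.39) and Eci1 (10.07). It was not so for all, and for Crat the low MF mock array was lowest (10.41). This 1 mouse enters the low CR pair and all comparisons above that use CR mock arrays.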

How the results depend on the processing

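No named member reversed its direction under any alternative. Of the values recomputed for named members, 1007 kept their side of the threshold and 121 lost the call. The 1007 include members that were never called and had no call to lose, such as Acad10 in MF minus C (25 of 25). The share of calls kept is therefore lower than these totals show. The 19 Wy calls became 18 to 22 under the 6 alternatives that kept all pairs or dropped the high INT pair. They became 16 to 18 when 1 array was left out, with losses among Acad9, Echdc2 and Acat1. In these paired fits leaving out 1 array also drops its pair, so both arrays of a pair give the same fit. The 16 leave-outs are thus 8 different fits, and leaving out the arrays of the other prefix repeats 1 of them. Dropping the replicate block (the pairing) gave 20 calls, adding Hadh, and a block of matched class and treatment gave 4 in CR minus C, 2 in CR minus MF and 7 in INT minus CR. The 3 calls of CR minus C became 6 with a trended robust prior, 5 without the arrays of the other prefix, 1 within mock arrays and 0 within Wy arrays, and 2 to 6 when 1 array was left out. CR minus MF went from 3 to 1 within mock and 0 within Wy arrays, and to 1 to 3 with 1 array left out. INT minus CR went from 7 to 1 without the other-prefix arrays and to 0 within Wy arrays, and to 3 to 8 with 1 array left out. The single body weight call in C and MF became 0 to 1. Fits within a treatment or without arrays rest on fewer arrays, and the cause of the changes under the trended robust prior was not tested. The share of all genes called under each alternative is not given here. These counts therefore do not show whether the members moved more than the other genes did. Counts of 0 stayed at 0 in every alternative run.

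Centring moved each change by at most 0.04 log2 units, and the share of higher genes among all called went from 43.5% to 53.9% for Wy, from 43.2% to 57.1% in CR minus C, from 45.7% to 56.2% in CR minus MF and from 56.5% to 41.9% in INT minus CR. With 2 arrays per diet and treatment, small differences among these genes could not be separated from the spread between mice.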
